A study of Homo sapiens with 12 samples.

Results

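The FOS and JUN families of AP-1 transcription factors comprise 7 genes, namely FOS, FOSB, FOSL1, FOSL2, JUN, JUNB and JUND, and were followed in 12 human soft tissue sarcoma arrays. The members were taken by gene symbol from the platform annotation, which named 19775 genes in all and gave the members 17 of its 54675 probe sets. FOS, FOSB, FOSL1 and JUNB each had 1 probe set, FOSL2 had 5, and JUN and JUND had 4 each. All 17 were bright enough to be tested, although JUND 229117_s_at was above the median of the whole table, 136.5, on only 4 arrays.

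Each of 3 established lines was studied with 1 array per treatment after 6 hours: taurolidine at 250 µmol per litre, taurolidine at that dose with TRAIL at 50 ng per ml, TRAIL alone, and no agent. According to the labels, A-204 is a rhabdomyosarcoma line, SK-LMS-1 a leiomyosarcoma line and VA-ES-BJ an epithelioid sarcoma line. Taurolidine is a taurine derivative with antimicrobial use that also kills tumour cells in culture, and TRAIL is a ligand that triggers apoptosis through death receptors. The deposited title asks whether the agents act synergistically, and a group mean here rests on n = 3 lines with no repeat within a line.

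AP-1 is a dimer of basic leucine zipper proteins that binds DNA at the sequence TGACTCA or, with ATF partners, at cAMP response elements. JUN proteins can pair with themselves or with any FOS protein, whereas FOS proteins normally need a JUN partner. FOS, FOSB, JUN and JUNB are classical immediate-early genes, transcribed within minutes of a growth factor or a stress through MAP kinases, and their messages are short-lived. FOSL1 and FOSL2 encode the FOS-related proteins FRA1 and FRA2, which lack the strong activation domain of FOS, and JUND is made steadily in many resting cells.

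The stretches just upstream of the transcription starts are shown because FOS and FOSB rose with taurolidine while FOSL2 fell, with JUNB, JUN and JUND beside them. They are the 120 bases before the RefSeq start in GRCh38.p14, written 5′ to 3′ along the gene, and capitals mark matches to TGACGT in either orientation, to TGACATCA or to TATAAA. The motifs were chosen with results of these data known.
FOS, chr14:75278708-75278827, plus strand: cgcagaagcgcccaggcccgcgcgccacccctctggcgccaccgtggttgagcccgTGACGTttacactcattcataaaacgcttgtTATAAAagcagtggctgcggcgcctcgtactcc
FOSB, chr19:45467876-45467995, plus strand: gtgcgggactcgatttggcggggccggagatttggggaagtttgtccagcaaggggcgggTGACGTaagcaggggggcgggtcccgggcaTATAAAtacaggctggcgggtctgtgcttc
JUNB, chr19:12791366-12791485, plus strand: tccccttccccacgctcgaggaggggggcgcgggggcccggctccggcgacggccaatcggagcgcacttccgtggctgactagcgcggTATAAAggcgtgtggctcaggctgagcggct
JUN, chr1:58784048-58784167, minus strand: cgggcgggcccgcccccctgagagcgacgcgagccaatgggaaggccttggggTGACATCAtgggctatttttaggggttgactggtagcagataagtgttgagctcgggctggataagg
JUND, chr19:18281623-18281742, minus strand: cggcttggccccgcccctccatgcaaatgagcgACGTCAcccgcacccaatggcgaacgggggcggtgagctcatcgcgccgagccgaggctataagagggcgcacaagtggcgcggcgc
FOSL2, chr2:28392738-28392857, plus strand: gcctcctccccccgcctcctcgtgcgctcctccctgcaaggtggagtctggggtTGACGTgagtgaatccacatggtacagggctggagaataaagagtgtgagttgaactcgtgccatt

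TATAAA lay 33 to 28 bases upstream of the start of FOS, 30 to 25 upstream in FOSB and 31 to 26 upstream in JUNB. It was not found in the 250 bases upstream of FOSL2, JUN or JUND, where only exact matches were counted. The printed stretches of JUND and FOSL2 hold tataag and aataaa, each differing from it in a single base. TGACGT, the core of the cAMP response element, ended 59 bases upstream of the start of FOS, 55 upstream of FOSB and 61 upstream of FOSL2, a gene whose signal was lower with taurolidine. JUND held it in the opposite orientation, 87 to 82 bases upstream, and had the full TGACGTCA, which contains TGACGT, 200 to 193 bases upstream and outside the printed stretch. In JUN the AP-1-like element TGACATCA, known to bind JUN and ATF2, lay 67 to 60 bases upstream. Neither TGACTCA nor the CArG box, the site of serum response factor, was found on either strand in these 6 windows of 250 bases. Bases further upstream were not searched, so a site there would have been missed. No entry for FOSL1 was found among the promoters used here, so FOSL1 was not searched. Among 35116 RefSeq promoters of the same length, 10.7% held TATAAA, 7.1% TGACGT, 2.37% TGACATCA, 1.65% TGACGTCA, 4.2% TGACTCA and 1.16% a CArG box. These matches describe letters and do not show that a factor was bound.

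Array medians lay between 123.2 and 155.4 in the MAS5 unit, and the mean without the lowest and highest 2% between 1000.1 and 1000.2, so all arrays had been scaled to a common brightness. The 27 probe sets of the poly-A spike-in controls, RNAs added during labelling, were higher with taurolidine in every line. The 2 arrays of a line with taurolidine, alone or with TRAIL, exceeded the 2 without it by 0.59 on average on the log2 scale (SD 0.11, n = 3 lines). Scaling to these spikes moved the median taurolidine change of all tested probe sets to -0.67, against -0.06 as deposited, and their calls to 122 higher and 17578 lower, against 1272 and 3130 as deposited. Member changes with taurolidine relative to untreated cells are therefore also given under spike scaling where a direction or a call differs, and the part of the spikes in the member results was not tested. The defining muscle factors went against the rhabdomyosarcoma label: MYOD1 had a signal of 28.6 and MYOG of 10.2 in untreated A-204 cells. None of 8 skeletal muscle genes exceeded the table median of 136.5 in those untreated cells. The highest was DES at 132, which was at 201 in A-204 with TRAIL. In untreated VA-ES-BJ, the epithelial genes KRT18, KRT19 and KRT8 were at 18904, 16189 and 16153, but MUC1 was at 292, EPCAM at 130 and CDH1 at 42.1. KRT18 was also at 11164 in untreated SK-LMS-1 and at 9211 in untreated A-204. KRT19 was at 27.9 and 9.33 in those untreated lines, and KRT8 at 339 and 2771. EPCAM (1915), MUC1 (733) and CDH1 (180) were higher in untreated A-204 than in VA-ES-BJ. SMARCB1, whose loss marks epithelioid sarcoma, was at 152 in untreated VA-ES-BJ, 3530 in SK-LMS-1 and 1235 in A-204. In untreated SK-LMS-1, the smooth muscle genes CALD1, SMTN and TAGLN were at 29741.5, 11456.5 and 9763. They were at 18406.5, 6802 and 4245 in untreated VA-ES-BJ, and at 13589, 1653 and 271 in untreated A-204. ACTA2 was at 1686 in untreated SK-LMS-1, below its 4980 in untreated VA-ES-BJ. CNN1 was at 661, MYH11 at 137 and DES at 127 in untreated SK-LMS-1. Of 6 epithelial marker genes 2, KRT18 and MUC1, passed the test with taurolidine (0.63 with adjusted p = 0.035, and 0.52 with adjusted p = 0.037), and the list's summed signal ran between 15804 and 70872 on arrays with taurolidine and between 10736 and 63788 on the others. Of 4 measured leukocyte genes none exceeded the table median on all arrays. The part of these marker genes in the member results was not tested.

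FOS was the most responsive member in 2 of the 3 lines. In A-204 its signal was 6106 with taurolidine and 4939 with both agents, against 486 with TRAIL and 325 without treatment. In SK-LMS-1 it was 20857 with taurolidine and 21662 with both agents, against 201 with TRAIL and 108 without treatment. In VA-ES-BJ it was 2692 with taurolidine and 3289 with both agents, against 179 with TRAIL and 148 without treatment. Both arrays with taurolidine were above both arrays without it in every line, with no overlap even between lines, and SK-LMS-1 held both the highest and the lowest FOS signal of the 12 arrays. FOS rose 37.7-fold with taurolidine relative to untreated cells (5.24 ± 0.76 on the log2 scale, SE, limma adjusted p = 0.0063), the change ranked 2 from the top among 32421 probe sets. Because a constant of 11.8 was added before the logarithm, such folds understate the plain ratios of signal, which were 193 in SK-LMS-1, 18.8 for A-204 and 18.2 for VA-ES-BJ.

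FOSB, a FOS relative whose product also pairs with JUN proteins, was dim without taurolidine and bright with it. In A-204 the FOSB signal was 2370 with taurolidine and 1428 with both agents, against 243 with TRAIL and 185 without treatment. In SK-LMS-1 it was 5891 with taurolidine and 5924 with both agents, against 83.2 with TRAIL and 155 without treatment. In VA-ES-BJ the gene had 2642 with taurolidine and 2742 with both agents, against 18.4 with TRAIL and 35.7 without treatment. The arrays with taurolidine exceeded all arrays without it, and the TRAIL array of SK-LMS-1 and the TRAIL and untreated arrays of VA-ES-BJ lay below the table median. FOSB rose with taurolidine (4.85 ± 0.71, adjusted p = 0.0066). Because its arrays without taurolidine were dim, the size depends on the added constant, with 4.92 for the 5th percentile of the table as constant and 4.53 for the 25th.

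**Figure D1:**
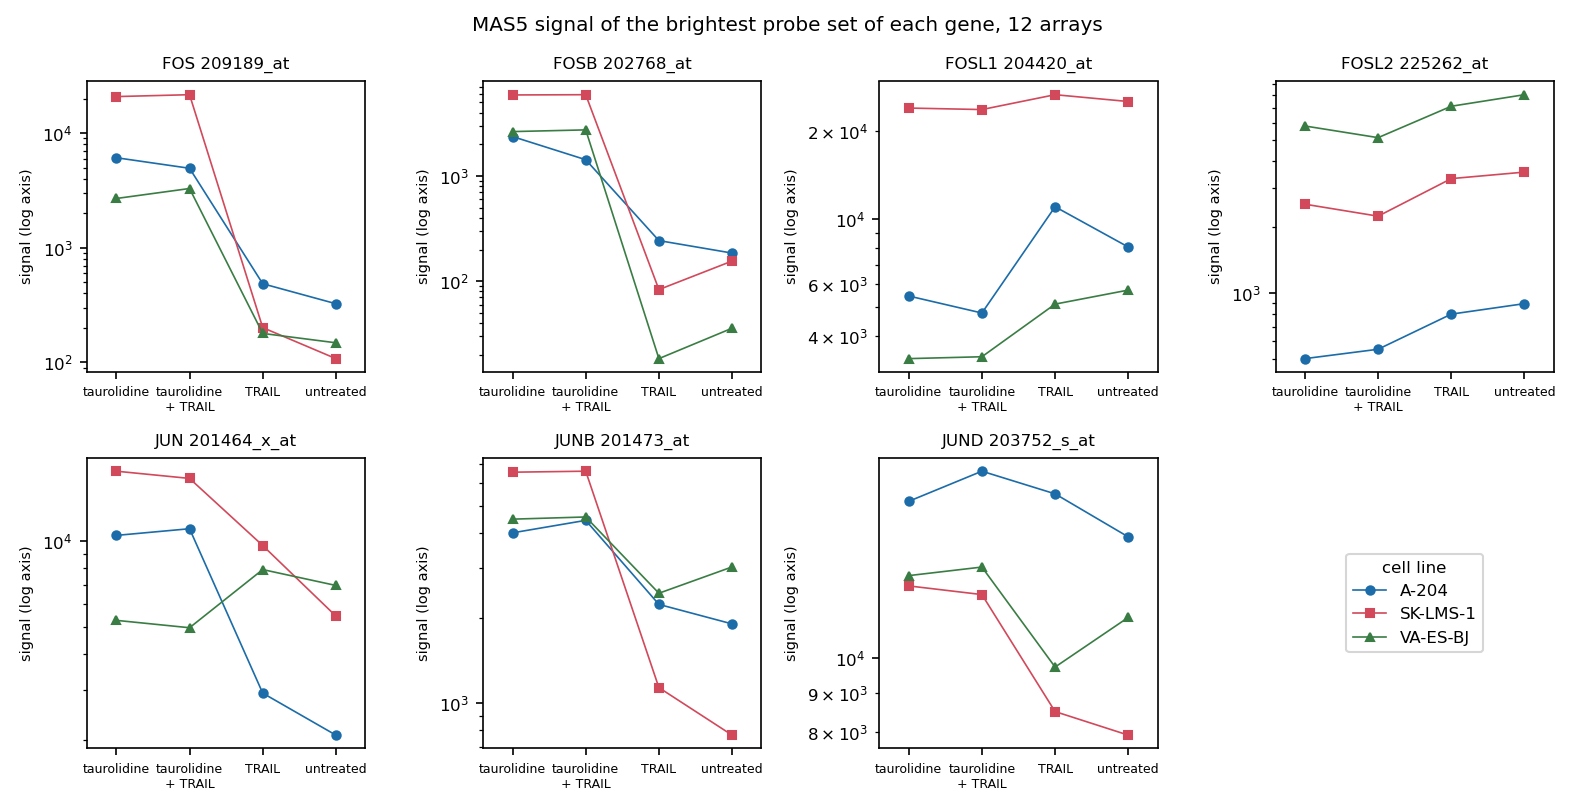
Signal of the brightest probe set of each member on a log axis, by cell line, with treatments ordered taurolidine, taurolidine with TRAIL, TRAIL and untreated; each point is 1 array and lines join the arrays of a cell line. FOS and FOSB separate the arrays with taurolidine from those without it in every line, whereas JUN does so upward in A-204 and SK-LMS-1 and downward in VA-ES-BJ.

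JUNB, which pairs with FOS proteins and is a weaker activator than JUN, had a signal of 4003 with taurolidine and 4432 with both agents in A-204, against 2232 with TRAIL and 1904 without treatment. In SK-LMS-1 JUNB was at 6565 with taurolidine and 6619 with both agents, against 1132 with TRAIL and 769 without treatment. In VA-ES-BJ it was at 4475 with taurolidine and 4556 with both agents, against 2445 with TRAIL and 3031 without treatment. The direction was the same in each line, and the size was largest in SK-LMS-1. The JUNB change of 1.57 ± 0.48, or 2.96-fold, did not pass the threshold in the fit over lines (adjusted p = 0.069). Under spike scaling it was 0.93 (adjusted p = 0.14).

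FOSL1 was bright on all 12 arrays and lower with taurolidine. Its signal in A-204 was 5471 with taurolidine and 4788 with both agents, against 11014 with TRAIL and 8033 without treatment. In VA-ES-BJ FOSL1 was at 3348 with taurolidine and 3398 with both agents, against 5134 with TRAIL and 5730 without treatment. In SK-LMS-1, where the gene was brightest, it was at 23880 with taurolidine and 23600 with both agents, against 26517 with TRAIL and 25136 without treatment. The arrays with taurolidine lay below those without it in all 3 lines, narrowly so in SK-LMS-1. The mean FOSL1 change of -0.47 ± 0.21 did not pass the threshold (adjusted p = 0.17), whereas under spike scaling FOSL1 fell by 1.10 (adjusted p = 0.0065).

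FOSL2 was the only member called lower in the fit over lines as deposited. Its brightest probe set, 225262_at, was at 500 with taurolidine and 552 with both agents in A-204, against 798 with TRAIL and 892 without treatment. In SK-LMS-1 225262_at was at 2542 with taurolidine and 2241 with both agents, against 3328 with TRAIL and 3564 without treatment, and in VA-ES-BJ at 5794 and 5123 with those agents, against 7132 with TRAIL and 8055 without treatment. The groups did not overlap within any line, although the lines themselves differed more in FOSL2 than the treatments did. A steeper fall was measured by 228188_at, which had 33.7 with taurolidine and 52.6 with both agents in A-204, against 469 with TRAIL and 558 without treatment. In VA-ES-BJ 228188_at was at 708 with taurolidine and 818 with both agents, against 3057 with TRAIL and 3201 without treatment, and in SK-LMS-1 at 464 and 437 with those agents, against 1181 with TRAIL and 890 without treatment.

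With taurolidine relative to untreated cells, FOSL2 fell by 3 of its 5 probe sets, with changes of -0.59 ± 0.11 for 225262_at (adjusted p = 0.015), -1.37 ± 0.24 for 218880_at (adjusted p = 0.012) and -2.24 ± 0.46 for 228188_at (adjusted p = 0.020). The value of 205409_at was -1.29 ± 0.36 (adjusted p = 0.053), and under spike scaling this probe set fell by 1.89 (adjusted p = 0.0029). The remaining probe set, 218881_s_at, had -0.12 ± 0.67 (adjusted p = 0.92) and disagreed between lines: in A-204 it was at 155 with taurolidine against 20.4 without treatment, whereas in VA-ES-BJ it was at 594 with taurolidine against 2302 without treatment. It was also dim in A-204, where the second pair of arrays went the other way, with a signal of 33.6 for both agents against 78.7 for TRAIL. Its change did not differ between lines past the threshold (F test over lines, adjusted p = 0.41). What each FOSL2 probe set detects along the transcript is not given in the sources used here.

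JUN, the central partner of the family, had signals that moved in opposite directions in different lines. Probe set 201464_x_at, its brightest, was at 10448 with taurolidine and 11028 with both agents in A-204, against 2918 with TRAIL and 2078 without treatment. In SK-LMS-1 the same probe set had 17561 with taurolidine and 16565 with both agents, against 9627 with TRAIL and 5441 without treatment. In VA-ES-BJ it had 5256 with taurolidine and 4952 with both agents, against 7926 with TRAIL and 6970 without treatment. By this probe set JUN was thus higher with taurolidine in A-204 and SK-LMS-1 and lower in VA-ES-BJ, and the arrays did not overlap within a line. Its fall in VA-ES-BJ was not called in the limma model per line described below (adjusted p = 0.21). Probe set 201466_s_at gave 2821 with taurolidine and 2576 with both agents in A-204, against 1066 with TRAIL and 991 without treatment, and 2733 and 2631 with those agents in VA-ES-BJ, against 5758 with TRAIL and 4904 without treatment. Averaged over lines, none of the 4 JUN probe sets passed the threshold, with changes between 0.38 and 2.28 and adjusted p between 0.16 and 0.66. The lowest of them, that of 201466_s_at, was -0.26 under spike scaling (adjusted p = 0.64).

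**Figure D2:**
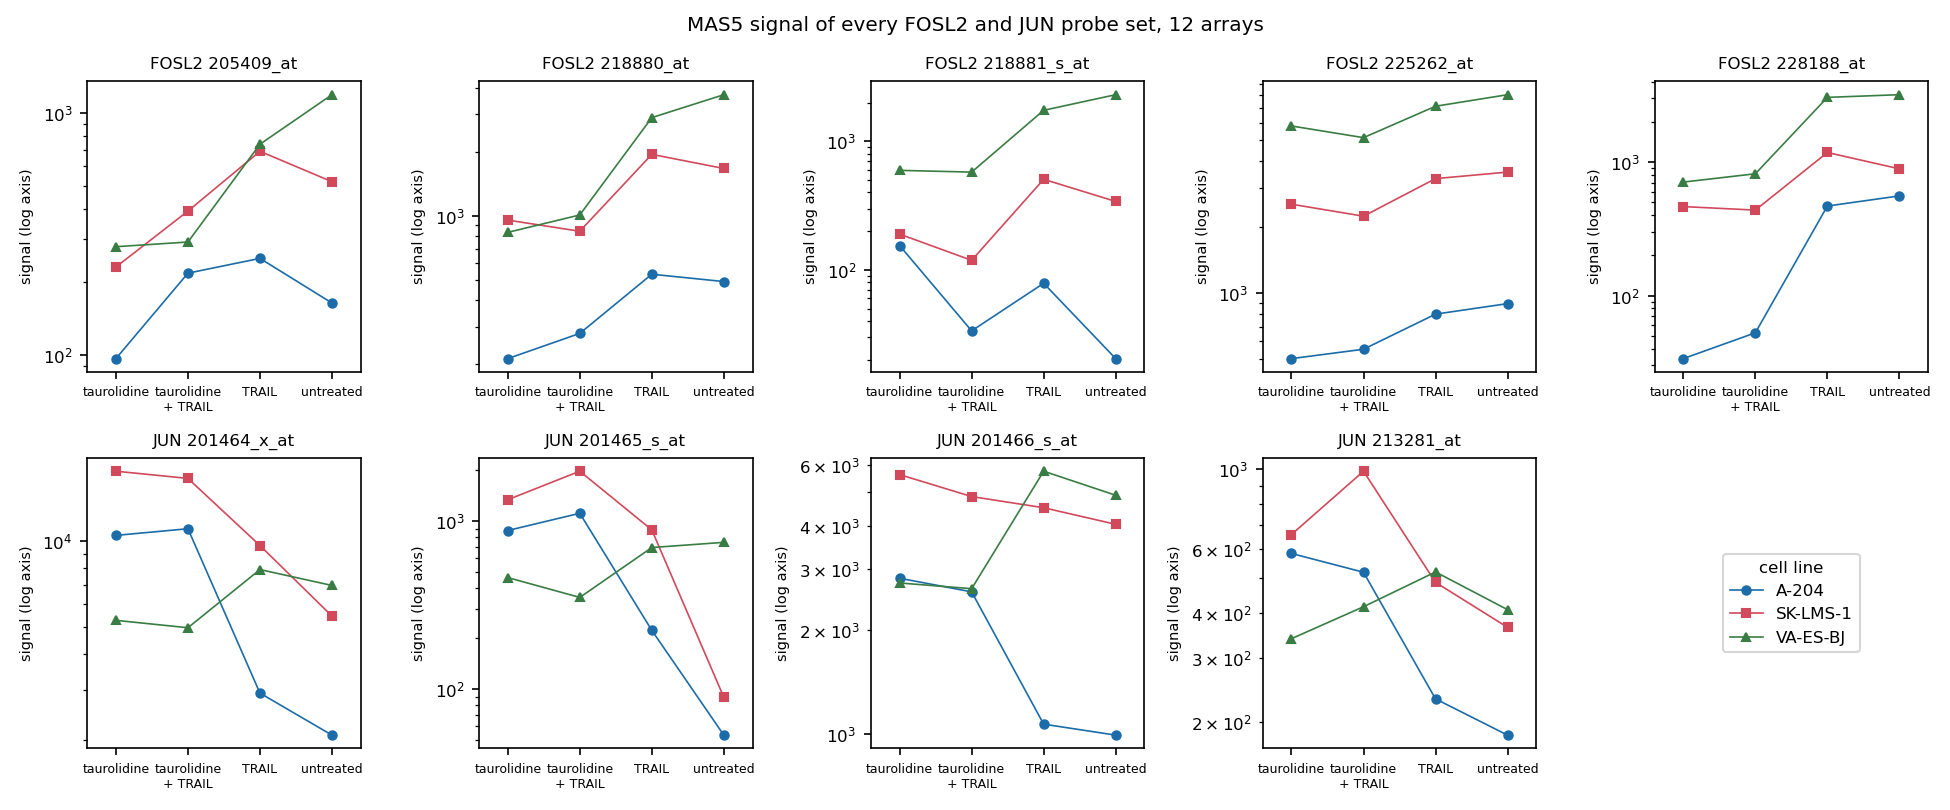
Signal of the 4 JUN and 5 FOSL2 probe sets on log axes, by cell line, with treatments ordered taurolidine, taurolidine with TRAIL, TRAIL and untreated; each point is 1 array and lines join the arrays of a cell line. The 4 JUN probe sets are higher with taurolidine than without treatment in A-204 and SK-LMS-1 and lower in VA-ES-BJ, and FOSL2 218881_s_at in A-204 departs from the other FOSL2 probe sets.

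JUND, the steadily expressed JUN relative, gave no called change over lines. Its brightest probe set, 203752_s_at, was at 15988 with taurolidine and 17498 with both agents in A-204, against 16349 with TRAIL and 14370 without treatment. In SK-LMS-1 it was at 12407 with taurolidine and 12088 with both agents, against 8512 with TRAIL and 7932 without treatment, and in VA-ES-BJ at 12795 and 13128 with those agents, against 9727 with TRAIL and 11288 without treatment. The groups overlapped in A-204 and were separate in SK-LMS-1 and VA-ES-BJ. The JUND change was 0.33 ± 0.15 as deposited (adjusted p = 0.17) and -0.31 under spike scaling (adjusted p = 0.16). Changes of the other JUND probe sets lay between -0.93 and 0.25 and did not pass the threshold. The lowest was that of 229117_s_at (adjusted p = 0.051), whose highest signal on any array was 160 and which fell by 1.48 under spike scaling (adjusted p = 0.0026). The other 2 were also negative under that scaling and not called, with -0.50 for 203751_x_at and -0.38 for 214326_x_at.

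Over the 17 member probe sets, 2 rose (FOS and FOSB) and 3 fell (all FOSL2) with taurolidine relative to untreated cells, while 3.92% of all tested probe sets rose and 9.65% fell, 13.6% in all. An unadjusted p under 0.05 was reached by 9 members, beside 30.3% of all. The members' median change was 0.25, against -0.06 over all tested probe sets. Under spike scaling 8 members were called, 2 higher and 6 lower, beside 0.376% of all tested probe sets higher and 54.2% lower. Leaving out a line removed most calls over the whole array, members included. Without A-204 no member passed (9 of 17 had an unadjusted p under 0.05), beside 0% of all tested probe sets (19.8% unadjusted). Without VA-ES-BJ no member passed either (12 unadjusted), beside 0.179% of all (23.3% unadjusted). Without SK-LMS-1 only FOS passed (4.13, adjusted p = 0.033, 8 unadjusted), beside 1.47% of all (22.6% unadjusted). In those fits the FOS change was 5.76 without A-204 and 5.82 without VA-ES-BJ, and the FOSB change 5.47 without A-204, 4.37 without VA-ES-BJ and 4.70 without SK-LMS-1. When only the 6 arrays of the groups compared were fitted, no member passed (8 unadjusted), and neither did any other tested probe set (23.4% unadjusted). Labels do not say whether the arrays of a line came from separate cultures, so array-to-array spread may be technical in part. With 1 array per line and treatment, the spread behind these p-values also holds differences between lines in their response. The fit over lines cannot separate those 2 sources.

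Arrays with both agents against arrays with TRAIL alone offer a second comparison, made on separate arrays but with the spread estimated in the same fit. There FOS rose by 4.70 ± 0.76 (adjusted p = 0.010) and FOSB by 4.99 ± 0.71 (adjusted p = 0.0069). The FOSL2 changes were -0.52 ± 0.11 for 225262_at (adjusted p = 0.027), -1.20 ± 0.24 for 218880_at (adjusted p = 0.022) and -2.07 ± 0.46 for 228188_at (adjusted p = 0.029). The called members were again 2 higher and 3 lower, beside 3.33% of all tested probe sets higher and 7.88% lower, or 11.2% in all, and 8 members had an unadjusted p under 0.05, beside 29.9% of all. JUNB had 1.47 ± 0.48 (adjusted p = 0.087) and FOSL1 -0.65 ± 0.21 (adjusted p = 0.080). Without A-204 no member passed in this comparison (8 unadjusted), beside 0% of all (19.2% unadjusted), and without VA-ES-BJ none did (9 unadjusted), beside 0.197% of all (22.7% unadjusted). Without SK-LMS-1 only FOS did (7 unadjusted), beside 1.84% of all.

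Both agents against no treatment, a comparison that shares its untreated arrays with the first, gave 5.25 ± 0.76 for FOS and 4.63 ± 0.71 for FOSB. It also called 2 members higher and 3 lower, beside 3.67% of all tested probe sets higher and 9.1% lower, or 12.8% in all, and 10 members had an unadjusted p under 0.05, beside 30.2% of all. FOSL2 had -0.67 ± 0.11 for 225262_at, -1.21 ± 0.24 for 218880_at and -2.04 ± 0.46 for 228188_at. JUNB had 1.63 ± 0.48 and FOSL1 -0.53 ± 0.21, neither past the threshold. Here no tested probe set, member or not, passed without A-204 (8 members and 19.1% of all unadjusted) or without VA-ES-BJ (9 members and 23% of all unadjusted). FOS alone of the members passed without SK-LMS-1 (7 unadjusted), beside 2.49% of all.

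A fit that averaged all 6 arrays with taurolidine against the 6 without it, chosen after the data were seen, called 9 of the 17 members. FOS, FOSB, JUNB (1.52 ± 0.34, adjusted p = 0.014) and JUND 203752_s_at (0.34 ± 0.10, adjusted p = 0.042) were higher, beside 11% of all tested probe sets. FOSL1 (-0.56 ± 0.15, adjusted p = 0.024) and 4 of the 5 FOSL2 probe sets were lower, beside 17.4%. Counting arrays alone, both arrays with taurolidine exceeded both without it in every line for FOS, FOSB and JUNB, which 10.2% of all tested probe sets also did. They lay below in every line for FOSL1 and for FOSL2 218880_at, 225262_at and 228188_at, as did 14.6% of all tested probe sets.

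TRAIL did not move a member past the threshold. With TRAIL relative to untreated cells, 0 of the 17 member probe sets were called by limma and 0 had an unadjusted p under 0.05, beside 0% called and 4.3% with an unadjusted p under 0.05 among all tested probe sets. FOS changed by 0.55 (95% interval -1.19 to 2.29) and FOSB by -0.37 (-2.01 to 1.28), and these intervals also leave room for changes of several fold. The largest estimate was 1.63 (-0.62 to 3.89) for JUN 201465_s_at. In SK-LMS-1 that probe set had a signal of 885 with TRAIL against 89.4 without treatment, in A-204 224 against 53.3, and in VA-ES-BJ 694 against 746. The other 3 JUN probe sets had TRAIL changes of 0.17 to 0.50.

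Adding TRAIL to taurolidine changed FOS by 0.01 (-1.73 to 1.75), FOSB by -0.22 (-1.87 to 1.42) and JUNB by 0.06 (-1.05 to 1.17). No member was called, beside 0% of all tested probe sets, and 1 member, the dim JUND 229117_s_at, had an unadjusted p under 0.05, beside 3.26%. The departure of the combination from the sum of the single-agent log2 changes was -0.54 (-3.00 to 1.93) for FOS, 0.15 (-2.18 to 2.47) for FOSB and -0.10 (-1.67 to 1.48) for JUNB. For JUN 201464_x_at it was -0.53 (-2.38 to 1.32). Again no member was called, beside 0%, and the same JUND probe set alone had an unadjusted p under 0.05 (1.30, 0.45 to 2.14), beside 4.24%. These intervals are wide, and a departure of 1 log2 unit in FOS lies inside them.

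**Figure D3:**
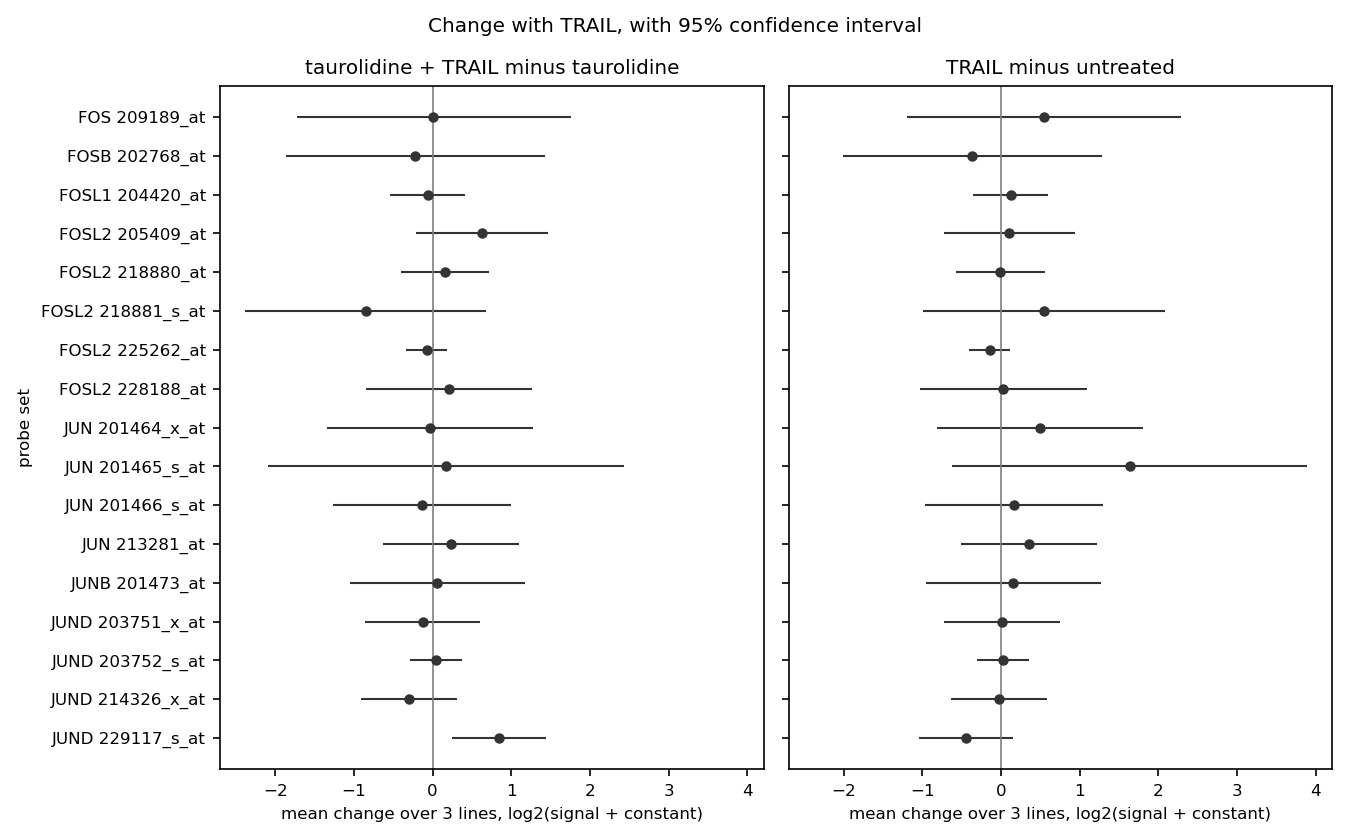
Change of each member probe set in log2(signal + constant) for taurolidine with TRAIL minus taurolidine (left) and for TRAIL minus untreated (right), with 95% intervals from the limma fit of 12 arrays. The intervals include 0 for every member except JUND 229117_s_at when TRAIL was added to taurolidine.

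The lines were then compared in a model that gave each line its own taurolidine change and took the TRAIL effect as shared. Arrays with and without TRAIL thus stood in for repeats of a line. The p-values of this model and its F test measure misfit among single arrays, not spread between repeats. Whether the TRAIL effect was shared was not tested. For JUN 201465_s_at the TRAIL change was 3.15 in SK-LMS-1, 1.86 for A-204 and -0.10 for VA-ES-BJ. For FOS it was 0.83, 0.56 and 0.25 in that order. In A-204, 7 member probe sets rose, namely FOS, FOSB, JUNB and all 4 of JUN, and 4 fell, namely FOSL1 and 3 of FOSL2; of all tested probe sets 6.18% rose and 13.6% fell there. In SK-LMS-1, 6 rose, namely FOS, FOSB, JUNB, 2 of JUN and JUND 203752_s_at, and 3 of FOSL2 fell, beside 2.84% and 7.24% of all. In VA-ES-BJ, FOS and FOSB rose, and 3 FOSL2 probe sets and JUN 201466_s_at fell, beside 2.07% and 7.49%. A call present in one line and absent in another is not by itself a difference between lines. In the model without A-204, 5 of these calls were lost in the other lines, in that without SK-LMS-1 2, and in that without VA-ES-BJ 7, none of them a call of FOS, FOSB or JUNB. Under spike scaling 3 rises were no longer called, those of JUNB in A-204 (0.30, adjusted p = 0.22), of JUND 203752_s_at in SK-LMS-1 (0.05, adjusted p = 0.78) and of JUN 213281_at in SK-LMS-1 (0.41, adjusted p = 0.17). JUND 203752_s_at in A-204 fell by 0.60 there (adjusted p = 0.010), against 0.13 as deposited. Without a call under either scaling, JUN 201466_s_at in SK-LMS-1 changed from 0.29 as deposited to -0.23 under spike scaling. JUND 203752_s_at in VA-ES-BJ changed from 0.31 to -0.23, also without a call. Calls gained under that scaling were all of lower signal. In A-204 they were FOSL2 205409_at, JUND 203751_x_at (-1.16, adjusted p = 0.0088) and JUND 214326_x_at (-0.79, adjusted p = 0.029), and in SK-LMS-1 they were FOSL1 (-0.64, adjusted p = 0.030) and FOSL2 205409_at. In VA-ES-BJ they were FOSL1 (-1.22, adjusted p = 0.0036), JUN 201464_x_at (-1.08, adjusted p = 0.011), JUN 213281_at (-0.80, adjusted p = 0.028), FOSL2 218881_s_at and FOSL2 225262_at. Under that scaling the share of all tested probe sets called lower was 33.5% for VA-ES-BJ, 33.8% for SK-LMS-1 and 51.2% for A-204.

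**Figure D4:**
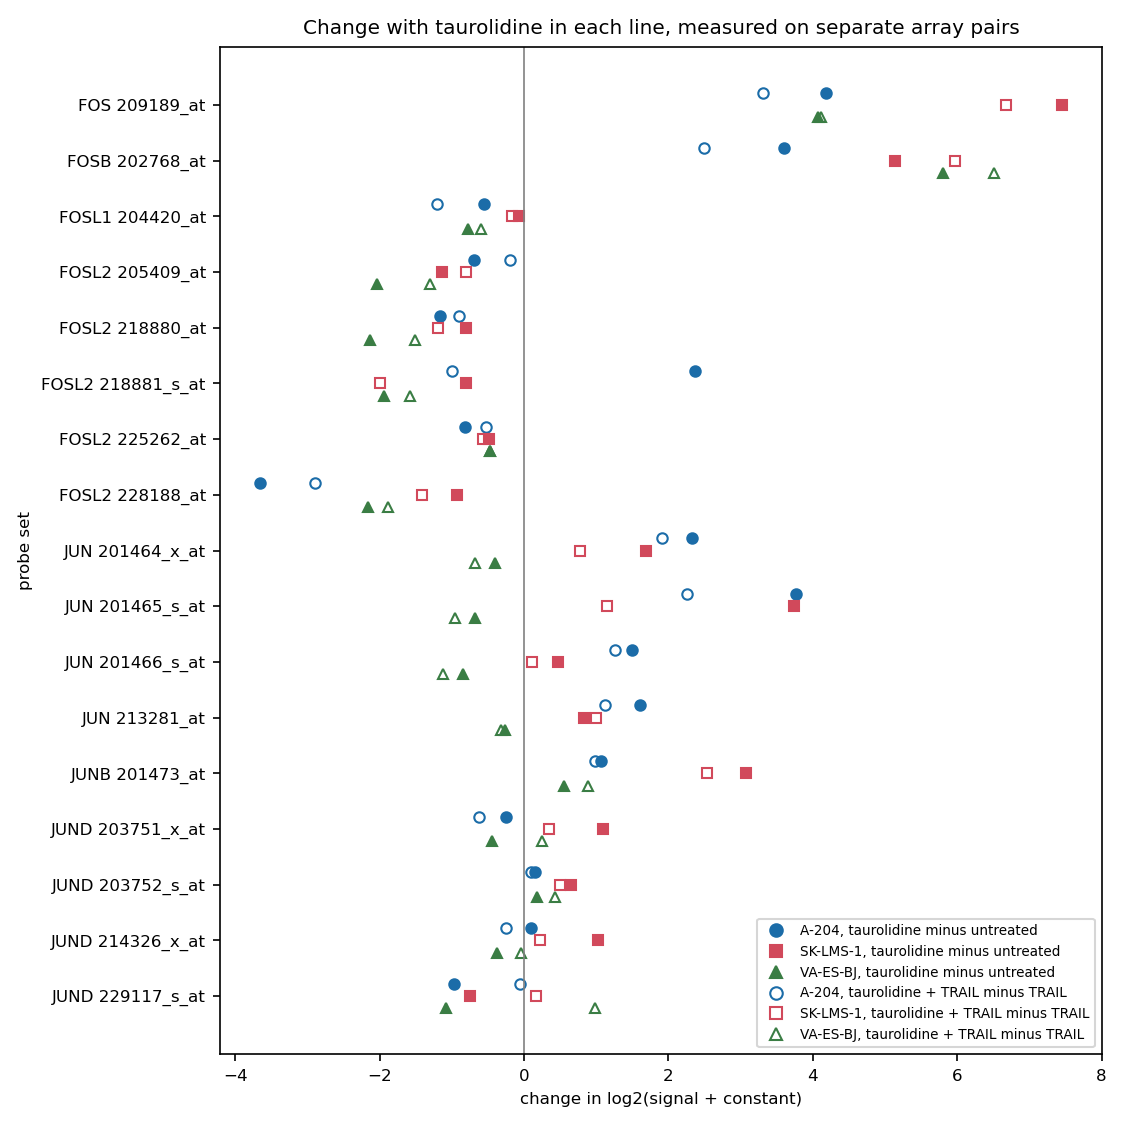
Change of each member probe set in log2(signal + constant) in A-204, SK-LMS-1 and VA-ES-BJ; filled symbols are taurolidine minus untreated and open symbols taurolidine with TRAIL minus TRAIL, each from 1 pair of arrays and so without an error bar. FOS and FOSB are far to the right for every pair, and the 4 JUN probe sets lie right of 0 in A-204 and SK-LMS-1 and left of 0 in VA-ES-BJ.

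The difference between lines passed its own test for 2 member probe sets of 17, beside 0.25% of all tested probe sets. FOS rose by 7.06 in SK-LMS-1, 4.10 in VA-ES-BJ and 3.75 in A-204, each ± 0.26 (F test over lines, adjusted p = 0.041), so A-204 and VA-ES-BJ lay close together and SK-LMS-1 apart. The untreated FOS signal of SK-LMS-1, 108, was below the table median of 136.5, which FOS exceeded on the other 11 arrays. With taurolidine its signal was highest in that line (20857). JUN 201466_s_at rose by 1.38 in A-204 (adjusted p = 0.0020), had 0.29 in SK-LMS-1 (adjusted p = 0.25) and fell by 0.98 in VA-ES-BJ (adjusted p = 0.0091), each ± 0.14, and the lines differed (adjusted p = 0.033). The brightest JUN probe set, 201464_x_at, had 2.12 in A-204, 1.24 for SK-LMS-1 and -0.54 for VA-ES-BJ, but its test between lines did not pass (adjusted p = 0.064). The same order held for 213281_at, with 1.37, 0.92 and -0.29 (adjusted p = 0.094), and for 201465_s_at, with 3.01, 2.44 and -0.82 (adjusted p = 0.28). JUN 201466_s_at and FOS were not called without the filter on dim probe sets (adjusted p = 0.13 for JUN and 0.14 for FOS), with equal array medians (0.073 for JUN and 0.068 for FOS), or with any line left out, when the FOS test had an adjusted p of 0.18 without A-204, 0.19 without VA-ES-BJ and 0.72 without SK-LMS-1.

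Other members differed in size between lines without passing that test. FOSB had 6.16 in VA-ES-BJ, 5.55 for SK-LMS-1 and 3.05 for A-204, each ± 0.32 (F test adjusted p = 0.080). No order is read from these FOSB values, since the gene was dim without taurolidine in VA-ES-BJ (35.7) and its signal with taurolidine there (2642) was near that of A-204 (2370) and below that of SK-LMS-1 (5891). JUNB had 2.81 in SK-LMS-1, 1.03 for A-204 and 0.73 for VA-ES-BJ, each ± 0.20 (adjusted p = 0.064), and the last of these was not called (adjusted p = 0.068). FOSL2 228188_at fell in each line, with -3.28 in A-204, -2.02 in VA-ES-BJ and -1.17 in SK-LMS-1, each ± 0.21 (adjusted p = 0.080). FOSL1 fell by 0.88 in A-204 (adjusted p = 0.015), and its values of -0.68 for VA-ES-BJ (adjusted p = 0.054) and -0.12 for SK-LMS-1 (adjusted p = 0.70) were not called (F test adjusted p = 0.32).

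Genes whose pattern was most like that of a member were taken by Pearson's r over the 12 arrays after the mean of each line was subtracted, among 14214 other genes. For FOS they were ZFAND2A, an arsenite-inducible zinc finger gene (r = 0.993), PTGS2, which encodes the inducible cyclooxygenase (0.988), and HES1, a Notch target (0.988). These 3 genes had taurolidine changes of 1.53, 2.63 and 2.82. Among the members, r with FOS was 0.957 for JUNB, 0.944 for FOSB and 0.920 for JUND 203752_s_at. The other JUND probe sets had -0.328 to 0.387, and the 4 JUN probe sets 0.213 to 0.671. The 5 FOSL2 probe sets had -0.912 (225262_at) to -0.509 (218881_s_at), and FOSL1 had -0.637. FOSB was followed by FTSJ1 (0.993), PIGH (0.991) and PYGL (0.986), whose changes of 0.29 to 0.48 were far smaller. FOSL1 was most like COX10 (0.976), JUNB like SLC25A11 (0.980), JUND like SHFL (0.972) and FOSL2 like DNAJB14 (0.985), a gene with a change of -0.92. JUN had the weakest best match, PCK2, the mitochondrial PEP carboxykinase (0.956). The arrays fall into those with and those without taurolidine, which all these coefficients share, so they describe a shared pattern and carry no p-value.

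Other components of the AP-1 pathway were read from lists chosen with results of these data known, with 1 probe set per gene; of all 14221 genes, 5.43% rose and 9.74% fell with taurolidine. Among basic leucine zipper partners of FOS and JUN proteins, 4 of 11 tested genes rose and 0 fell. They were ATF3, a stress-induced repressor and activator (3.35 ± 0.45), MAFF, a small MAF protein (1.63 ± 0.30), ATF4, the main factor of the integrated stress response (1.04 ± 0.13), and ATF7, an ATF2 relative (0.49 ± 0.12). Of 4 other ATF7 probe sets 3 had the opposite sign, and under spike scaling ATF7 had -0.14. The median of this list was -0.06, against -0.00 over all genes.

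Kinases that pass stress signals to JUN were mostly lower where they changed. Of 16 tested MAP kinase genes 1 rose and 4 fell, with a list median of 0.05: the JNK pathway kinases MAP3K1 (-1.32 ± 0.21), MAP2K4 (-1.11 ± 0.17), MAP3K4 (-0.89 ± 0.19) and MAP3K5 (-0.63 ± 0.15) fell, and MAP2K2, which activates ERK and was named after its value was seen, rose (0.46 ± 0.12). The MAP2K2 change (limma adjusted p = 0.045) was not recomputed under spike scaling. Of 7 MAP kinase phosphatases 0 rose and 2 fell, with a median of -0.39, namely the JNK and p38 phosphatases DUSP16 (-3.12 ± 0.52) and DUSP10 (-0.98 ± 0.23). The ERK phosphatase DUSP6 had 0.73 ± 0.36 (adjusted p = 0.21) and DUSP1, an immediate-early phosphatase, 0.68 ± 0.33 (adjusted p = 0.21).

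Among 11 tested transcription factors that bind FOS and JUN promoters 0 rose and 2 fell, with a median of -0.24. They were MRTFB, a coactivator of serum response factor (-0.90 ± 0.20), and ELK4, a ternary complex factor (-0.76 ± 0.11), of which 2 of 3 other probe sets had the opposite sign. MRTFA, the other coactivator of serum response factor, had -0.85 ± 0.26 (adjusted p = 0.069) and CREB1, which binds cAMP response elements, -0.50 ± 0.28 (adjusted p = 0.27). In the list for decay of FOS mRNA and turnover of the proteins 1 of 15 genes rose, the deadenylation factor TOB1 (1.23 ± 0.13), and 3 fell, with a median of 0.04. Those that fell encode parts of ubiquitin ligases that mark JUN for destruction: FBXW7 (-2.19 ± 0.21), of which 1 of 3 other probe sets had the opposite sign, DET1 (-0.77 ± 0.20) and COP1 (-0.62 ± 0.17). Of 22 known AP-1 target genes 2 rose and 0 fell, with a median of 0.21. The cytokine gene IL6 rose by 1.40 ± 0.32 and the protease inhibitor gene TIMP1 by 0.61 ± 0.13, while the growth factor gene HBEGF had 1.14 ± 0.39 (adjusted p = 0.093) and MMP10 0.59 ± 0.82 (adjusted p = 0.68). Under spike scaling TIMP1 had -0.02 and IL6 0.79 (adjusted p = 0.053).

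**Figure D5:**
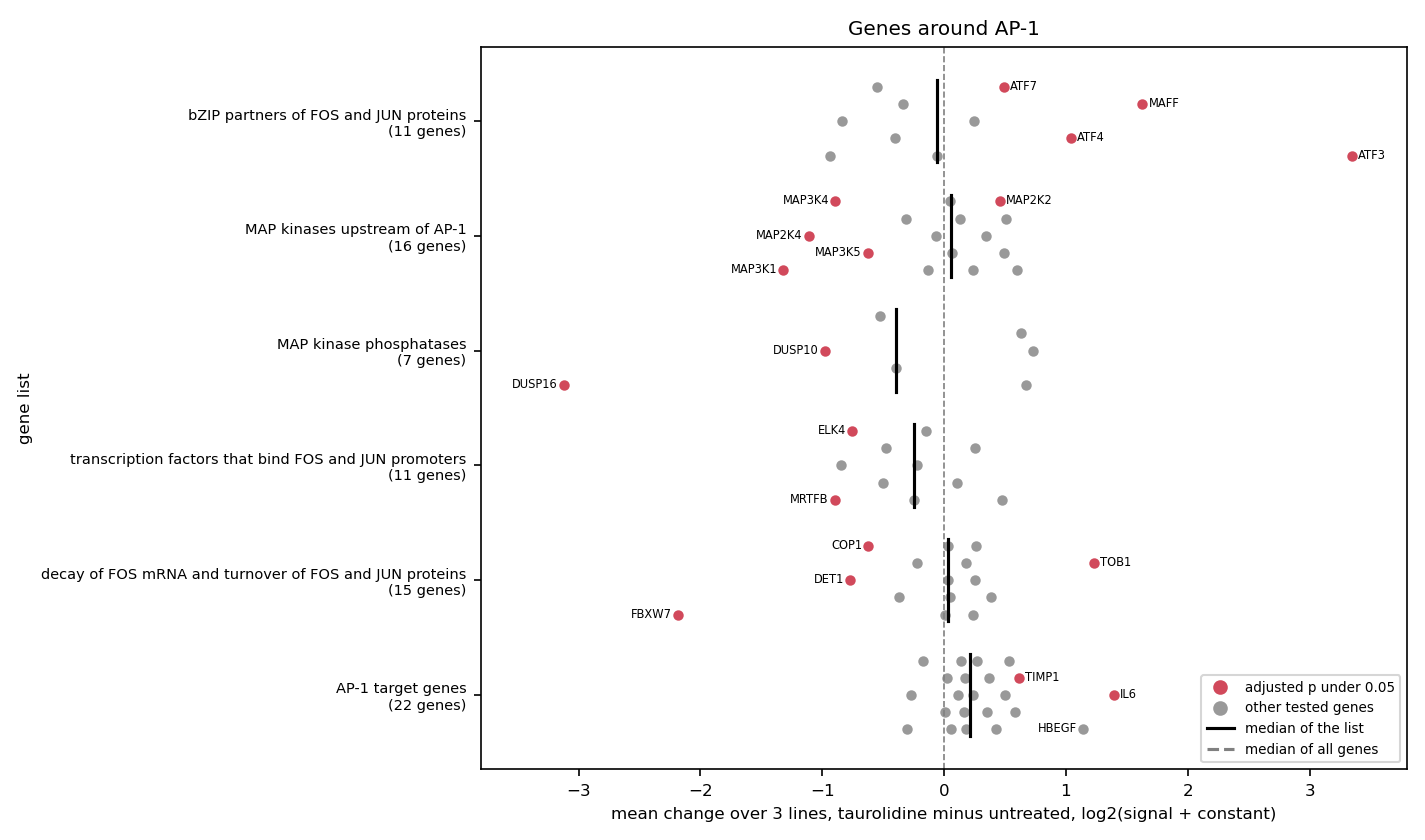
Taurolidine change on the log2 scale of every tested gene of the 6 AP-1 pathway lists, 1 probe set per gene; red points passed the threshold over all tested probe sets and grey points did not, the black bar marks each list's median and the dashed line the median of all genes. ATF3 has the largest rise and DUSP16 the largest fall, and the list medians lie between -0.39 and 0.21.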

How the data were processed

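The deposited table holds linear intensity for 54675 probe sets on each of 12 arrays, made with MAS5 per the submitters' processing notes, with no version, scaling target or detection calls stated. MAS5 gives every array a common mean, so a change in total messenger RNA per cell is not visible in such values. Per the labels' protocols, biotinylated cRNA was made by the Affymetrix 3′ procedure from total RNA.

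The platform annotation gave 41097 probe sets 1 gene, 1801 several and 11777 none, and members were taken only from those with 1 gene. Control probe sets (62) were left out, and tests covered probe sets above the table median, 136.5, on at least 3 arrays, 32421 in number. Values entered as log2(intensity + 11.8), the constant being the 10th percentile of the table. Linear models with treatment and cell line were estimated by limma 3.58.1 (R 4.3.3) with 6 residual and 2.04 prior degrees of freedom, Benjamini-Hochberg adjustment over all tested probe sets and a threshold of 0.05. The model with a taurolidine change per line had 5 residual degrees of freedom and took the TRAIL effect as shared. Its residual spread is misfit to that assumption among single arrays, since no line had a repeat of a treatment. The fits were tested on simulated data. Any pair of arrays had at most 0.0018% of values in common. Precision is limited by how few arrays there are.

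Arrays of a line were paired because they came from the same line. Deviations from treatment means correlated at 0.785 to 0.869 within lines and at -0.538 to -0.35 between them. Subtracting the mean of the 3 lines pushes the values between lines below 0, so their sign carries no support for the pairing. All member probe sets are described. Of each pathway list up to 4 genes with the largest change were named, called ones first, with the brightest probe set of a gene, and the 3 genes most like each member were computed. The members, gene lists, motifs and tests were chosen with earlier results of these data known. Alternatives varied the constant, the filter, the normalisation, the probe sets per gene, the moderation, the cell line term and the arrays.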

Additional observations from a re-analysis of the deposited data

Results flagged for a closer look

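Of the member probe sets, 2 had a taurolidine change that differed between the cell lines by the F test of that difference. That test took the TRAIL effect as shared and had no repeat arrays of a line and treatment. For FOS 209189_at the adjusted p was 0.041, with log2 changes of 7.06 in SK-LMS-1, 4.10 for VA-ES-BJ and 3.75 for A-204. For JUN 201466_s_at it was 0.033, with 1.38 in A-204, 0.29 for SK-LMS-1 and -0.98 for VA-ES-BJ. The other 3 JUN probe sets had the same order of lines with adjusted p of 0.064, 0.094 and 0.28.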

How the results depend on the processing

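Outside the counts, 2373 single results (changes of members and of up to 4 genes per list, and tests between lines) were recomputed over all alternatives: 2079 kept their direction or their lack of a call, 221 kept direction and lost the call, 70 gained one, 3 changed sign, and 76 of those not called either way had the opposite sign. The 3 were ATF7 (-0.14), TIMP1 (-0.024) and JUND 203752_s_at in A-204 (-0.60), all under spike scaling. Each count of called members is followed by the share of all tested probe sets called in the same fit. Called members with taurolidine relative to untreated cells numbered 5 as reported (13.6% of all), 8 under spike scaling (54.6%), 3 with 1 probe set per gene (19.2%), 0 with only the arrays compared (0%; 8 members with an unadjusted p under 0.05) and 9 (28.4%) with all arrays with against all without taurolidine, the last chosen after seeing the data. With no replicate block, that is without the cell line term, they were 2 (0.682%). For both agents relative to untreated cells the 5 (12.8%) became 2 without the filter (2.84%), 3 with 1 probe set per gene (18.9%), 8 with an intensity trend (19.7%), 2 with no replicate block (0.626%) and 0 with only the arrays compared (0%; 6 members unadjusted). For both agents relative to TRAIL the 5 (11.2%) became 2 without the filter (2.51%), 8 under spike scaling (43%), 3 with 1 probe set per gene (16.2%), 1 with no replicate block (0.561%) and 0 with only the arrays compared (0%; 8 members unadjusted). Leaving out a line gave 0 to 1 calls in each of these comparisons, beside 0% to 2.49% of all tested probe sets. The 2 differences between lines (0.25%) became 0 without the filter (0.0128%), 6 with the 75th percentile filter (6.49%), 0 with equal array medians (0.0864%), 4 with 1 probe set per gene (1.43%), 7 with an intensity trend (2.62%) and 0 to 0 with a line left out (0%; 7 to 8 members unadjusted). Fewer arrays or fewer probe sets follow from the construction of the fits with arrays left out and with 1 probe set per gene; otherwise the cause was not tested. JUNB passed with the 75th percentile filter (adjusted p = 0.024), with an intensity trend (0.018) and over all arrays with taurolidine (0.014), and otherwise ranged between 0.055 and 0.29. Departure from additivity and the test between lines could not be fitted with only the arrays compared, and the test between lines was not run without the cell line term. Dim probe sets (JUND 229117_s_at, FOSL2 218881_s_at and the arrays of FOSB without taurolidine) are the least precise, and a single array per line and treatment leaves no error within a line.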
